A study of Mus musculus with 9 samples.

Results

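Cd5l was examined together with 9 genes of the oxysterol and retinoid receptor system, which made 10 of the 54119 genes summed from the transcript counts. The other members were the liver X receptors (LXR) Nr1h2 and Nr1h3, the retinoid X receptors (RXR) Rxra and Rxrb, the retinoic acid receptor Rara, the fatty acid receptor Pparg, and the LXR target genes Abca1, Abcg1 and Mylip. Cd5l and Rara had been picked because an earlier reading of these same libraries found them changed after Chd8 siRNA. Their levels are therefore a description, without a test, in every comparison, because the comparisons share libraries. The other 8 genes were tested.

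The study asked what the loss of Chd8 or Tsc2, both linked to autism, does in microglia, the resident macrophages of the brain. Chd8 encodes a chromatin remodeller and Tsc2 a brake on the growth kinase mTOR complex 1. Primary microglia of C57BL/6J mice received control siRNA, Chd8 siRNA or Tsc2 siRNA for 3 days, and total RNA of 3 cultures per group was sequenced. All 3 groups, the controls included, went through transfection with a lipid reagent. According to the study's methods the cells were shaken off mixed glia grown from whole brains of mouse embryos in late gestation, and each replicate came from a distinct brain. The age and sex of the embryos are not in the labels. Every library held both Xist, made from the inactive X chromosome, and the Y-linked Ddx3y, so that what a replicate held is not settled by the methods alone. The siRNA lowers a transcript and is not a deletion, and the cells had matured outside the brain. The study's results text places the sequencing after stimulation with lipopolysaccharide, a bacterial activator of microglia, in all 3 groups alike. Its methods describe such activation of siRNA-treated microglia for co-culture, while the sample labels name none, so that an activated state of these cells, controls included, cannot be told from the labels.

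LXRs sense oxysterols and other cholesterol derivatives and bind DNA as heterodimers with RXR. In macrophages they switch on Abca1 and Abcg1, which export cholesterol, and Mylip, which marks the low-density lipoprotein receptor for degradation. Cd5l, also called AIM, is a secreted protein of the scavenger receptor cysteine-rich (SRCR) family made by tissue macrophages, protects them from apoptosis and is a known LXR target. RARα and PPARγ, encoded by Rara and Pparg, also pair with RXR, and answer to retinoic acid and to fatty acids.

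The site bound by the LXR and RXR pair is a direct repeat of 2 receptor half-sites with 4 bases between them, called DR4, and the Abca1 promoter holds such a repeat. The sequences are shown to set that repeat beside the promoter of Cd5l. They are the 250 bases before the start in RefSeq on GRCm38.p6, chr4:53159896-53160145 on the minus strand for Abca1 and chr3:87357631-87357880 on the plus strand for Cd5l, written 5′ to 3′ with a DR4 match in capitals.
Abca1: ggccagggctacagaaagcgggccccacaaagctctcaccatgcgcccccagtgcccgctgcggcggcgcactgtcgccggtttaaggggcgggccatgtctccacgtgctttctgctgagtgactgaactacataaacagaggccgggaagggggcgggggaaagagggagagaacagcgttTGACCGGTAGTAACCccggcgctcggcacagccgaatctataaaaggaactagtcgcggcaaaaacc
Cd5l: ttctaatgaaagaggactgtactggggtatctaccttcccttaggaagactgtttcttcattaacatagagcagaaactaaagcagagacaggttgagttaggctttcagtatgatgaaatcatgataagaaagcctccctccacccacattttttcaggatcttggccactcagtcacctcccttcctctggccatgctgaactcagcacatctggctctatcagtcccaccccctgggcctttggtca
The letters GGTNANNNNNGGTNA were searched on both strands from 250 bases before to 50 bases after each start. The Abca1 match lay 67 to 53 bases before the start and read GGTTACTACCGGTCA on the opposite strand. Of 32851 RefSeq promoters, 236 (0.718%) held a match. The 9 members with an entry had 17 promoters, and the match in Abca1 was the only one for DR4. None of the 17 held GGTNANNNNNNGGTNA, the retinoic acid receptor repeat DR5 (0.633% of all promoters), or GGTNANNGGTNA, the PPAR repeat DR1 (1.1%). A match of letters is a description, not evidence of binding.

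The 9 libraries held 16913005 to 33213477 estimated counts, so that the 3 counts a value of 0 allows were 0.0903 to 0.177 CPM (counts for each 1000000 counts of the library), for counting error only. The siRNA targets were examined first. Chd8 stood at 93.6 to 118 CPM in the controls and at 86.8, 44.6 and 38.2 CPM after Chd8 siRNA, so that the library numbered 1 kept most of it. Tsc2 stood at 38.9 to 40.8 CPM in the controls and at 24.6, 30.6 and 36.4 CPM after Tsc2 siRNA, and the library numbered 3 kept most of it. Summed over 10 microglial markers, of which 9 passed the filter on low counts, the level was 1897 to 2799 CPM in the 9 libraries. Tmem119, a marker which defines microglia in the adult brain, had 0 to 2 counts with control siRNA and 0 to 6 with Tsc2 siRNA. With Chd8 siRNA it had 1 to 27 counts, at up to 1.11 CPM. In RNA from whole cultures, fewer cells of a type and less RNA per cell cannot be told apart.

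Cd5l was low in every control culture and higher in every knockdown culture. Its levels were 4.90, 3.88 and 2.62 CPM with control siRNA, from 61 to 130 counts. They were 17.4, 18.5 and 12.96 CPM with Chd8 siRNA, from 290 to 519 counts. They were 12.5, 7.52 and 14.9 CPM with Tsc2 siRNA, from 150 to 508 counts. Neither knockdown group overlapped the controls, and the knockdown groups overlapped each other. Means were 3.80 ± 1.144, 16.3 ± 2.93 and 11.6 ± 3.75 CPM (SD, n = 3 each). The mean with Chd8 siRNA was 4.28 times and that with Tsc2 siRNA 3.06 times the control mean. Among the 16229 genes that passed the filter, 4.16% lay higher without overlap after Chd8 siRNA and 3.88% after Tsc2 siRNA, and Cd5l was among the genes chosen for such a difference.

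Compared within a replicate number, Cd5l was higher at all 3 numbers after either siRNA. The log2 difference to the control of the same number was 1.83, 2.25 and 2.31 after Chd8 siRNA. It was 1.35, 0.96 and 2.51 after Tsc2 siRNA, so that the spread was wider there. Cd5l stood at 17.4 CPM in the Chd8 siRNA library that kept most Chd8 and at 14.9 CPM in the Tsc2 siRNA library that kept most Tsc2. Among the 3 libraries of each knockdown the level of the target did not order the level of Cd5l, and a relation was not tested. Both siRNA comparisons use the same 3 controls. Between the knockdowns the mean with Chd8 siRNA was 1.40 times that with Tsc2 siRNA, with a lower level at number 3 and higher levels at the other numbers.

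Markers of other cells were read beside Cd5l. The summed level of border-associated macrophage genes was 400 to 407 CPM in the controls, 431 to 490 CPM with Chd8 siRNA and 491 to 542 CPM with Tsc2 siRNA, and the 3 groups did not overlap. Most of that sum was Ms4a7, at 318 to 326, 343 to 402 and 410 to 452 CPM, an order without overlap found in 9 of 16229 genes (0.0555%). Pf4 overlapped between the groups, at 2.49, 6.10 and 5.11 CPM with control siRNA, 4.02, 10.46 and 6.25 CPM with Chd8 siRNA and 3.67, 9.53 and 8.75 CPM with Tsc2 siRNA, and was higher than the control of the same number at all 3 numbers in both knockdowns, as Cd5l was. Mrc1, the next most abundant after Ms4a7, overlapped at 69.0 to 84.1, 60.1 to 82.4 and 55.6 to 81.7 CPM, F13a1 had 0 to 42 counts, Cd163 had 2 to 5, 0 to 3 and 0 to 1 counts, and Lyve1 was at 0 in every library. Astrocyte markers summed to 14.59, 24.75 and 106.5 CPM with control siRNA, 13.63, 24.43 and 47.05 CPM with Chd8 siRNA and 12, 27.38 and 50.97 CPM with Tsc2 siRNA, so that they were lower than the control of the same number at all 3 numbers with Chd8 siRNA and at numbers 1 and 3 with Tsc2 siRNA. Neuronal markers summed to 4.562, 6.219 and 19.22 CPM, 2.914, 6.442 and 12.83 CPM and 3.758, 4.262 and 5.826 CPM in the same order, lower at all 3 numbers with Tsc2 siRNA and at numbers 1 and 3 with Chd8 siRNA. Oligodendrocyte lineage markers, at 24.51, 26.54 and 19.95 CPM in the controls and 24.25, 24.47 and 11.83 CPM with Tsc2 siRNA, were also lower at all 3 numbers there. With Chd8 siRNA they were at 27.36, 26.72 and 19.33 CPM, higher than the control at numbers 1 and 2 and lower at number 3. The microglial sum was 2625, 2334 and 1897 CPM with control siRNA, 2799, 2422 and 2126 CPM with Chd8 siRNA and 2668, 2389 and 2436 CPM with Tsc2 siRNA, above the control of the same number at all 3 numbers in both knockdowns, as Cd5l was. Fibroblast and vessel markers summed to 21.9, 36.0 and 72.8 CPM with control siRNA, 19.8, 21.4 and 32.1 CPM with Chd8 siRNA and 16.9, 30.5 and 53.7 CPM with Tsc2 siRNA, and were lower than the control of the same number at all 3 numbers in both knockdowns. The part of any of these cells in the level of Cd5l was not tested.

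**Figure D1:**
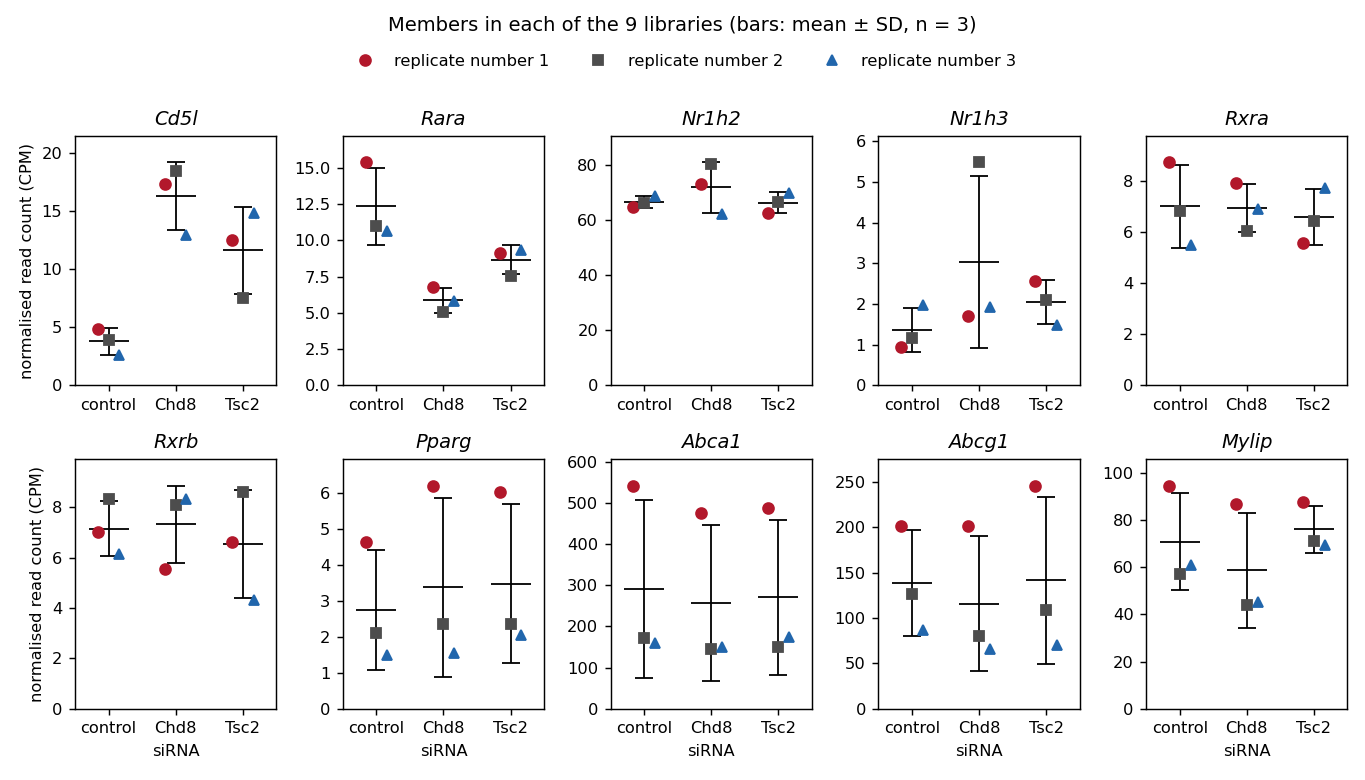
Level of each of the 10 genes in CPM (linear axis from 0) in the 9 libraries, grouped by siRNA, with a circle, square or triangle for replicate number 1, 2 or 3 and bars for the mean and SD of 3 libraries. Cd5l stands at 2.62 to 4.90 CPM in the controls and at 7.52 to 18.5 CPM in the knockdown libraries, and Rara at 10.6 to 15.4 CPM in the controls and at 5.04 to 9.37 CPM in the knockdown libraries.

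Rara, which encodes the retinoic acid receptor RARα, went the other way from Cd5l. It stood at 15.4, 11.0 and 10.6 CPM with control siRNA, from 179 to 408 counts. It stood at 6.76, 5.04 and 5.84 CPM with Chd8 siRNA and at 9.14, 7.52 and 9.37 CPM with Tsc2 siRNA. Every control library lay above every Tsc2 siRNA library, which in turn lay above every Chd8 siRNA library. That order was found in 13 of 16229 genes (0.0801%), and the order Tsc2 siRNA over Chd8 siRNA over control in 9 (0.0555%). Because Rara had been picked for its change, the share is background and not a test. Means were 12.4 ± 2.64, 5.88 ± 0.864 and 8.68 ± 1.01 CPM (SD, n = 3 each), so that 0.476 of the control mean remained with Chd8 siRNA and 0.703 with Tsc2 siRNA. Within a replicate number the log2 difference to the control was -1.19, -1.13 and -0.87 after Chd8 siRNA, and -0.75, -0.55 and -0.18 after Tsc2 siRNA. The difference was smallest at number 3 in both knockdowns, where Tsc2 was least reduced by its siRNA but Chd8 was lowest. The level of the target did not order this difference in the same way in both knockdowns, and it ordered the level of Rara itself in neither. A relation was not tested. As with Cd5l, these are the values for which Rara was picked, beside a background of 4.91% of genes lower without overlap after Chd8 siRNA and 4.25% after Tsc2 siRNA, and of 4.38% lower with Chd8 than with Tsc2 siRNA.

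None of the other receptors separated the groups. Nr1h2, which encodes LXRβ, was the abundant LXR, at 64.7, 66.2 and 68.7 CPM with control siRNA, 73.0, 80.2 and 62.1 CPM with Chd8 siRNA, and 62.5, 66.5 and 69.9 CPM with Tsc2 siRNA. Its log2 fold change (log2FC) was 0.11 after Chd8 siRNA (95% interval -0.17 to 0.39), and the interval after Tsc2 siRNA ran from -0.28 to 0.27. Changes above about 0.39 in either direction thus lay outside both intervals.

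Nr1h3, which encodes LXRα and is itself an LXR target, had the fewest counts of the 10 genes. There were 19 to 46 counts with control siRNA, 47 to 86 with Chd8 siRNA and 42 to 60 with Tsc2 siRNA. Its levels were 0.943, 1.17 and 1.97 CPM, then 1.71, 5.48 and 1.93 CPM, then 2.56, 2.11 and 1.49 CPM. The library numbered 2 with Chd8 siRNA stood alone above the rest, and the groups overlapped. The log2FC was 1.142 after Chd8 siRNA with an interval from -0.03 to 2.31, so that neither no difference nor a 4-fold rise lay outside it. Without that library the log2FC was 0.42.

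Both RXR genes overlapped between the groups. Rxra stood at 5.49 to 8.75 CPM with control siRNA, 6.06 to 7.94 CPM with Chd8 siRNA and 5.59 to 7.76 CPM with Tsc2 siRNA. Rxrb stood at 6.14 to 8.31, 5.56 to 8.31 and 4.33 to 8.62 CPM. The log2FC of Rxra was -0.01 (interval -0.55 to 0.53) after Chd8 siRNA and -0.09 (-0.63 to 0.455) after Tsc2 siRNA. That of Rxrb was 0.03 (-0.61 to 0.68) and -0.13 (-0.78 to 0.51), so that changes of up to these bounds lay within the intervals. Pparg, which encodes the lipid sensor PPARγ, was at 1.502 to 4.64, 1.56 to 6.20 and 2.05 to 6.02 CPM. It was higher than the control of the same number at all 3 numbers in both knockdowns. Its log2FC was 0.30 (interval -1.115 to 1.714) after Chd8 siRNA and 0.33 (-1.083 to 1.745) after Tsc2 siRNA. With the replicate number in the fit it was 0.23 (-0.38 to 0.85) and 0.34 (-0.27 to 0.95), so that no difference lay within every interval.

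Abca1, the main cholesterol exporter among LXR targets, varied more between replicate numbers than between siRNAs. It stood at 542, 171 and 161 CPM with control siRNA, at 476, 144 and 151 CPM with Chd8 siRNA, and at 488, 151 and 173 CPM with Tsc2 siRNA. The library numbered 1 was the highest of its group each time, and the groups overlapped throughout. Abcg1, which exports cholesterol to high-density lipoprotein, was also highest in the library numbered 1 of every group, at 201, 127 and 87.0 CPM, then 201, 80.6 and 65.8 CPM, then 246, 109 and 69.7 CPM. Mylip stood at 94.5, 57.1 and 60.7 CPM, then 86.8, 44.1 and 45.2 CPM, then 87.6, 71.0 and 69.3 CPM. All 3 LXR targets were lower with Chd8 siRNA than with control siRNA at every replicate number, though Abcg1 at number 1 was at 201.4 and 201.2 CPM, whereas Cd5l was higher at every number.

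Tested without the replicate number, no gene of the 8 passed an adjusted p of 0.05 with a change of more than 1.5-fold, and the adjusted p of every one was 1 after Chd8 siRNA and 0.9996 after Tsc2 siRNA (edgeR quasi-likelihood test, Benjamini-Hochberg over 16229 genes). No gene of the whole table passed either (0%), and 622, 420 and 503 genes had an unadjusted p under 0.05 after Chd8 siRNA, after Tsc2 siRNA and between the knockdowns. DESeq2 called 9, 5 and 5 genes (0.0555%, 0.0308% and 0.0308%). These p-values measure the spread between cultures. The replicate numbers did pair the libraries, and with the number as a replicate block edgeR called 86 genes after Chd8 siRNA (0.53% of those tested), 63 after Tsc2 siRNA (0.388%) and 36 between the knockdowns (0.222%). Cd5l (log2FC 2.11 and 1.64 with the block) and Rara (-1.06 and -0.50) are not read against these shares, because they had been picked for their change. With 1 library left out, the log2FC of the blocked fit was 1.86 to 2.29 for Cd5l and -1.19 to -0.96 for Rara after Chd8 siRNA, and 1.22 to 1.96 for Cd5l and -0.62 to -0.39 for Rara after Tsc2 siRNA. After Chd8 siRNA the call held in 6 of 6 such fits for Cd5l and in 0 of 6 for Rara. That of Cd5l after Tsc2 siRNA held in 3 of 6. These ranges describe picked values and are not independent support.

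With the block, still none of the 8 tested genes was called. The log2FC after Chd8 siRNA was -0.18 for Abca1 (interval -0.34 to -0.01, adjusted p = 0.332 by edgeR with Benjamini-Hochberg adjustment). It was -0.35 for Abcg1 (interval -0.59 to -0.11, adjusted p = 0.166 by the same edgeR test). Mylip was at -0.30 (adjusted p = 0.275, edgeR) and, compared with Tsc2 siRNA, at -0.44 (interval -0.68 to -0.19, adjusted p = 0.133, edgeR). DESeq2 with the same block gave lower adjusted p-values, 0.0485 for Abcg1 after Chd8 siRNA (log2FC -0.34) and 0.0257 for Mylip between the knockdowns (-0.43), both below the 1.5-fold threshold. Of the 8, 3 had an unadjusted p under 0.05 after Chd8 siRNA, 0 after Tsc2 siRNA and 2 between the knockdowns, beside 12.9%, 10.7% and 10.8% of all genes. Any decrease of Abca1 after Chd8 siRNA beyond 0.34 on the log2 scale lay outside the interval of the blocked fit, while the unblocked interval ran from -1.61 to 1.26.

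**Figure D2:**
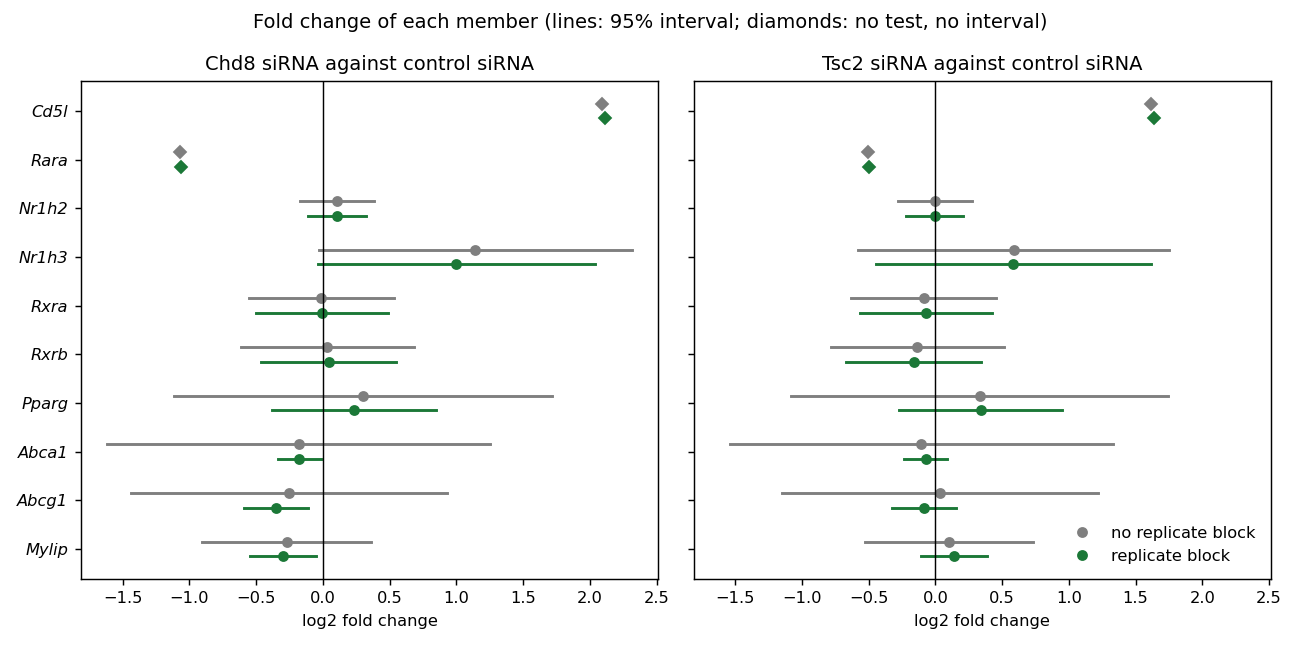
Log2 fold change of the 10 genes after Chd8 siRNA and after Tsc2 siRNA against the same 3 controls (x axis), without and with the replicate number as a block, with lines for 95% intervals of the 8 tested genes and diamonds without intervals for Cd5l and Rara. Cd5l lies at 2.10 and 1.61 and Rara at -1.07 and -0.51 without the block, and after Chd8 siRNA the interval of Abca1 runs from -1.61 to 1.26 without the block and from -0.34 to -0.01 with it.

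The replicate number itself was the larger source of variation for the cholesterol exporters and Pparg. Libraries numbered 1 stood apart from those numbered 2 and 3, by 1.66 ± 0.062 (SE) on the log2 scale for Abca1, 1.51 ± 0.23 for Pparg, 1.31 ± 0.094 for Abcg1 and 0.66 ± 0.097 for Mylip. The adjusted p across the 3 numbers was 4.59e-10, 0.000518, 2.07e-07 and 0.000391 in that order (edgeR quasi-likelihood F test, Benjamini-Hochberg). Abca1 was at 476 to 542 CPM in the libraries numbered 1 and at 144 to 173 CPM in the others. The background was high, with 25.1% of genes past the same threshold, 9.67% with every library numbered 1 above every other and 2.46% over 2 times higher there.

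Of the 10 genes, these 4 differed between numbers. Cd5l had a difference of 0.28 ± 0.22 and Nr1h3 of -0.38, with adjusted p of 0.621 and 0.593 by edgeR with Benjamini-Hochberg adjustment. Of 24 LXR targets tested, 12 differed between the 3 numbers. By more than 2 SE, 5 of them were higher in number 1, such as the lipid transfer gene Pltp at 1.07 and the apolipoprotein gene Apoc2 at 1.03, and 6 were lower, such as the desaturase genes Scd2 at -1.66 and Fads2 at -2.37 and the fatty acid synthase gene Fasn at -1.02, while the lipoprotein lipase gene Lpl was at 0.01. Both cholesterol exporters were thus higher and these 3 genes of fatty acid synthesis lower in number 1. Beside this, Xist was at 469 to 506 CPM in the libraries numbered 1 and 142 to 200 CPM in the others, and the Y-linked gene Ddx3y at 5.89 to 7.43 and 19.2 to 37.5 CPM. Every library thus held both, from at least 2234 and 174 counts, although the study's methods give each replicate a distinct brain. How many embryos of each sex entered a culture is not in the labels. Astrocyte markers summed to 12 to 14.6 CPM in number 1, 24.4 to 27.4 in number 2 and 47.1 to 106 in number 3. Their part in the difference between numbers was not tested.

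Without the libraries numbered 1, a setting chosen after the data were seen, and with the block, Mylip was called between the knockdowns. It was lower with Chd8 siRNA than with Tsc2 siRNA, with a log2FC of -0.65 (interval -0.89 to -0.42, adjusted p = 0.0111, edgeR with Benjamini-Hochberg adjustment). Abcg1 was lower after Chd8 siRNA by a log2FC of -0.53 (adjusted p = 0.0346 by the same edgeR test), below the 1.5-fold threshold. In that setting 108, 128 and 141 genes were called after Chd8 siRNA, after Tsc2 siRNA and between the knockdowns. Cd5l was at 2.28 and 1.81 there. Col1a1, a fibroblast marker, was called lower after both siRNAs in the same setting (-1.66 and -1.25), and Aif1, a microglial marker, was called higher after Tsc2 siRNA (0.64). Map2, a neuronal marker, was called lower after Tsc2 siRNA than with control siRNA (-1.80). Between the knockdowns, where Mylip was called, the pericyte and vessel marker Pdgfrb was called lower (-1.16) and the neuronal marker Map2 higher (1.68) with Chd8 siRNA than with Tsc2 siRNA. The part of these cells in the values above was not tested.

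**Figure D3:**
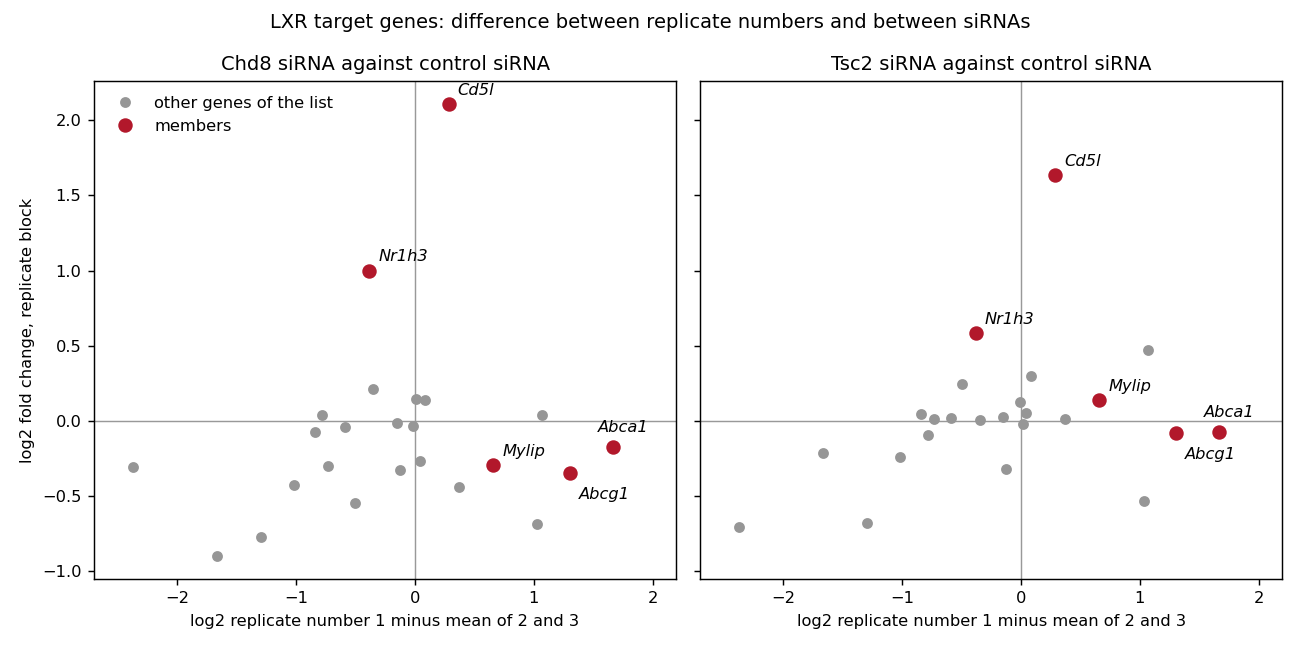
The 24 LXR target genes tested, 1 point per gene, with the log2 difference between libraries numbered 1 and the mean of those numbered 2 and 3 (x axis) against the log2 fold change with the replicate block (y axis), after Chd8 siRNA on the left and Tsc2 siRNA on the right. Abca1 and Abcg1 lie at 1.66 and 1.31 on the x axis and between -0.35 and -0.07 on the y axis, whereas Cd5l lies at 0.28 on the x axis and at 2.11 and 1.64 on the y axis.

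Levels of different genes were compared per transcript length, in TPM (counts per base of transcript, scaled to a sum of 1000000 over all transcripts). Over the 9 libraries the order of mean TPM was Abcg1 24.6, Nr1h2 23.6, Abca1 14.2, Mylip 11.9, Cd5l 2.63, Rara 1.70, Rxrb 1.56, Rxra 0.857, Pparg 0.789 and Nr1h3 0.632. The place of Abcg1 depended on the length taken for it. With the longest transcript of each gene, the control mean was 17.5 for Nr1h2, 14.95 for Abca1 and 12.4 for Abcg1, which put Abcg1 below both. In the control libraries Cd5l had a mean TPM of 0.924, below Rara at 2.24 and Rxrb at 1.52. It was at 3.90 with Chd8 siRNA, where Rara was at 1.13, so that Cd5l lay above all the receptors but Nr1h2. Among neighbours in the order of the control libraries, Mylip and Rara, Rara and Rxrb, and Rxrb and Cd5l did not overlap, and all other neighbours did. Nr1h3 made up 1.78% to 5.42% of the TPM of both LXR genes.

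**Figure D4:**
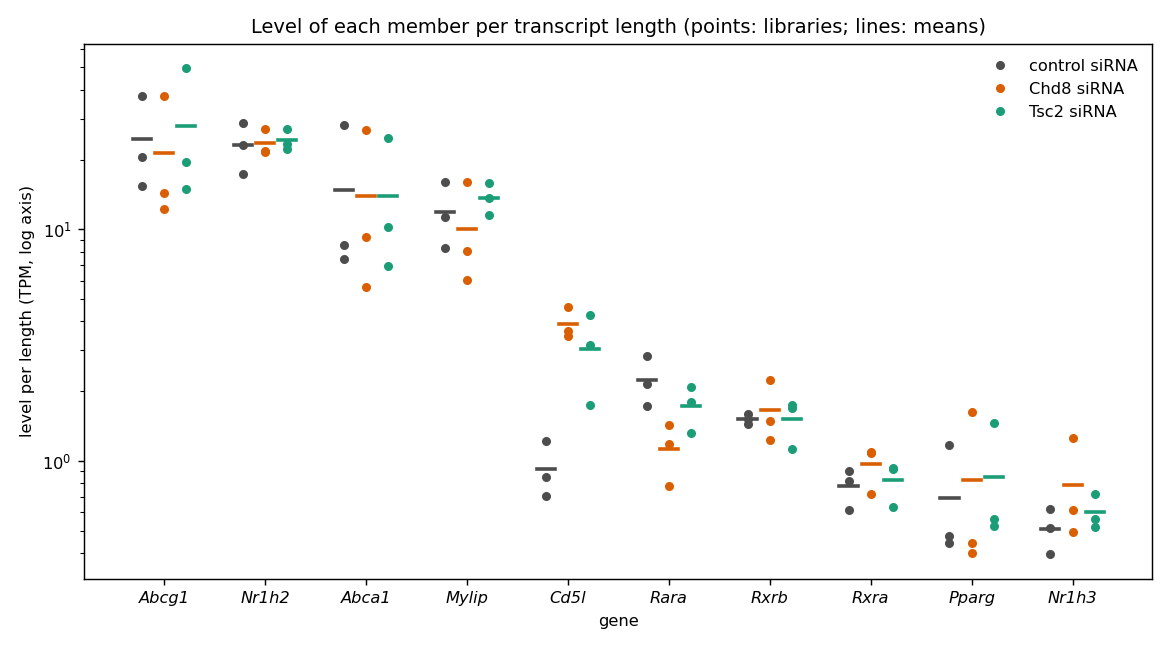
Level per transcript length of the 10 genes in TPM (log axis), with a point for each of the 9 libraries in the colour of its siRNA and a short line for the mean of each group. Abcg1, Nr1h2, Abca1 and Mylip lie highest, at means of 11.9 to 24.6 TPM over the libraries (with the longest transcript Abcg1 lies below Nr1h2 and Abca1), and Nr1h3 lowest at 0.632.

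The genes differed in how many annotated transcripts carried their counts. Cd5l has a single transcript of 2036 bases, so that its count cannot be split, and its gene at chr3:87357881-87371073 (GRCm38, plus strand) overlaps no other annotated gene. Abca1 was carried by Abca1-201 with 99.6% of its counts, whereas the leading Nr1h2-202 held 25.9%. Rara-204 held 63.9% of the Rara counts. Its share was 53.2, 40.2 and 62.9% in the controls and 83.7, 84.8 and 59.2% with Chd8 siRNA, which overlapped. Its own log2FC was -0.52 after Chd8 siRNA and -0.10 after Tsc2 siRNA, beside -1.07 and -0.51 for the gene. Of the 31 transcripts of the other 8 genes that were tested, edgeR called 0 in each comparison with or without the block, where it called 0 of 41633 in all and 1384, 1177 and 1357 had an unadjusted p under 0.05 without the block after Chd8 siRNA, after Tsc2 siRNA and between the knockdowns. DESeq2 also called 0 of the 31, where it called 188 after Chd8 siRNA, 172 after Tsc2 siRNA and 187 between the knockdowns in all (0.452%, 0.413% and 0.449% of those tested).

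The wider LXR pathway was read from a list of 26 known LXR target genes, of which 24 passed the filter and Abcg5 and Abcg8 were at 0 in every library. Apart from Cd5l, which is in the list by choice, none was called after either siRNA with or without the block. Without the block, 18 of the 24 had a log2FC below 0 after Chd8 siRNA and 6 above it, with a median of -0.15 beside -0.02 for all genes. With the block 17 lay below 0 and 7 above, with a median of -0.22, and 7 of those below 0 had an unadjusted p under 0.05, beside 12.9% of all genes in either direction. After Tsc2 siRNA 10 lay below 0 and 14 above in both fits, with a median of 0.01. Srebf1, the lipid synthesis regulator induced by LXR, was at 21.4 to 23.6 CPM with control siRNA, 21.8 to 26.6 with Chd8 siRNA and 25.4 to 28.9 with Tsc2 siRNA, and its log2FC was 0.14 and 0.30. Elovl5, a fatty acid elongase gene, was at 5.73, 9.67 and 8.75 CPM with control siRNA and 3.98, 6.31 and 6.17 CPM with Chd8 siRNA, and its log2FC was -0.55. The desaturase gene Scd1 had 11 to 71 counts and a log2FC of -0.84 and -0.91. None of these 3 was called with or without the block.

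Among RXR and its partner receptors, 12 of 19 passed the filter, and apart from Rara, which is in the list by choice, none was called with or without the block. The other retinoic acid receptors were scarce, Rarb at 0 to 1 counts per library and Rarg at 0 to 34. Of 16 co-regulators of nuclear receptors none was called. Ppargc1b, a co-activator of mitochondrial genes, had a log2FC of 1.26 after Tsc2 siRNA with the block (adjusted p = 0.0574 by edgeR with Benjamini-Hochberg adjustment). It stood at 2.53, 8.62 and 4.59 CPM in the controls and at 8.62, 10.1 and 16.1 CPM with Tsc2 siRNA, higher at every number. None of the 8 retinoid metabolism and retinoic acid target genes tested (of 18) and none of the 10 oxysterol and cholesterol handling genes tested (of 12) was called in all 9 libraries. The retinaldehyde reductase gene Dhrs3, induced by retinoic acid, was at 65.6, 39.0 and 35.1 CPM with control siRNA and at 61.1, 61.7 and 51.0 CPM with Chd8 siRNA, and was called without the libraries numbered 1 with the block (log2FC 0.60, adjusted p = 0.0404, edgeR with Benjamini-Hochberg adjustment). Npc2, which moves cholesterol out of lysosomes, had a log2FC of 0.19 after Chd8 siRNA.

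Of 10 PPARG targets 9 were tested, and in all 9 libraries none was called in any comparison, with or without the block. Cd36, the scavenger receptor for oxidised lipoprotein, was higher at every number after Chd8 siRNA, at 227, 353 and 252 CPM in the controls and 287, 433 and 392 CPM with Chd8 siRNA. With the block its log2FC was 0.43 (adjusted p = 0.0294, edgeR with Benjamini-Hochberg adjustment), below the 1.5-fold threshold. Without 1 library it was 0.31 to 0.51 with an adjusted p of 0.0366 to 0.289 in the same edgeR test, above 0.05 in 5 of 6 fits. Compared with Tsc2 siRNA the blocked log2FC of Cd36 was 0.52 (adjusted p = 0.0206, edgeR), also below the threshold. It was called between the knockdowns without the libraries numbered 1 (0.64, adjusted p = 0.00384, edgeR) and without library 1 of Chd8 siRNA (0.60) or of Tsc2 siRNA (0.62). Without any 1 of the other 4 libraries compared it was 0.40 to 0.56 with an adjusted p of 0.109 to 0.247 in the same edgeR test. Angptl4, a secreted inhibitor of lipoprotein lipase, had 6 to 19 counts in the controls and 0 to 1 with Chd8 siRNA, too few for a fold change.

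Relatives of Cd5l by sequence and by cell type were read from 2 further lists. Of 11 SRCR family genes 7 were tested, and apart from Cd5l, picked for its change, none was called with the block in all 9 libraries. Marco, a bacterial scavenger receptor of that family, was at 8.41 to 17.2 CPM with control siRNA, 7.02 to 12.02 with Chd8 siRNA and 6.47 to 9.72 with Tsc2 siRNA, and its log2FC was -0.66 and -0.72. Without the libraries numbered 1 and with the block Marco was called lower, at -1.21 and -1.07 (adjusted p = 0.0239 and 0.0356, edgeR with Benjamini-Hochberg adjustment). Of 12 genes known from Cd5l-rich tissue macrophages such as those of liver and spleen 8 were tested, and Clec4f and Lyve1 were at 0 in every library. In the blocked fit 4 of these 8, Cd5l included, had a log2FC above 0 after Chd8 siRNA and 4 below. The median was 0.05, beside -0.02 for all genes. After Tsc2 siRNA 4 also lay above 0 and 4 below. Folr2 had a mean of 15.1 CPM with control siRNA and 23.1 CPM with Chd8 siRNA. With the block the iron exporter gene Slc40a1 fell after Chd8 siRNA, by 0.70 on the log2 scale (adjusted p = 0.0413, edgeR with Benjamini-Hochberg adjustment), opposite to Cd5l. Its levels were 12.9, 28.8 and 32.6 CPM in the controls and 7.84, 20.7 and 17.7 CPM with Chd8 siRNA, lower at each number. Without the block its log2FC was -0.69 with an adjusted p of 1 in the edgeR test. The blocked call was lost without any 1 of the 6 libraries compared, with a log2FC of -0.80 to -0.54.

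The genes most like Cd5l and Rara over the 9 libraries were sought among 7830 genes with a mean of at least 5 CPM, by Pearson's r of log2 CPM. For Cd5l they were Rab4b (r = 0.972), Snx3 (0.939), Sept7 (0.937), Nfyb (0.932) and Snapc5 (0.924). For Rara they were Dhx33 (0.936), Gm20605 (0.928), Gsap (0.923), Rfx7 (0.918) and Zfp597 (0.917). The 9 points share 3 siRNA groups and 3 replicate numbers, so that r describes likeness only. None of the other members was among them, but Nr1h3 and Pparg, with group means under 5 CPM, were not in the search.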

How the data were processed

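Total RNA of primary mouse microglia was sequenced in 9 libraries, 3 per siRNA. According to the study's methods and the submitters' notes, the authors quantified transcripts with Salmon 0.14.1 and deposited estimated counts per transcript of GENCODE mouse release 21, on GRCm38. The study's methods give total RNA libraries and Illumina sequencing. Counts were rounded per transcript and summed per gene; 1096 of 140948 transcripts matched no gene (0.27% of counts). Library totals ran from 16913005 to 33213477. Of 54119 genes, 16229 passed filterByExpr, including all 10 described. CPM use TMM library sizes. The main test was edgeR 4.0.16 (quasi-likelihood, R 4.3.3) over all 9 libraries, with calls at a Benjamini-Hochberg adjusted p under 0.05 and a change above 1.5-fold. The replicate number as a block was the alternative, since the methods state none. The numbers paired the libraries, although the labels do not say so: deviations from the group mean correlated at 0.244 to 0.522 in all 9 pairs of one number and at -0.382 to 0.0366 in 18 other pairs. DESeq2 1.42.0, limma-voom 3.58.1, other scalings, filters and transcript choices, and leaving out each library were also run; libraries numbered 2 and 3 only the test of numbers, and the list genes' values without 1 library were added after the data were seen. Genes named from lists were those called or the 3 with the lowest p per list against the controls; others, such as Pltp, Apoc2, Scd2, Fads2, Fasn, Rarb and Tmem119, were named after their values were seen. The members and lists were chosen with earlier results of these data known. Scripts were tested on simulated data.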

Additional observations from a re-analysis of the deposited data

How the results depend on the processing

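Without the replicate block, edgeR called 0 genes in every comparison under RLE factors, a mean of at least 1 CPM, only the 2 groups compared, no fold threshold, either transcript choice, or without any 1 library. The separate limma-voom test also called 0. Genes called after Chd8 siRNA, after Tsc2 siRNA and between the knockdowns numbered 86, 63 and 36 with the replicate block, 9, 5 and 5 by DESeq2, 141, 117 and 100 by DESeq2 with the block, and 108, 128 and 141 in libraries numbered 2 and 3 with the block. With no filter edgeR called 2, 1 and 0. Members called numbered 2, 1 and 0 with the block and by DESeq2 either way, 1, 1 and 1 in libraries 2 and 3 with the block, and 1 after Chd8 siRNA with no filter; all but Mylip between the knockdowns were Cd5l or Rara, picked for their change. Transcripts of the members called by DESeq2 were 1 and 1 after the siRNAs, in both cases of Cd5l. With the block, leaving out 1 of the 6 libraries compared gave 20 to 81, 7 to 131 and 4 to 129 genes and 1, 0 to 1 and 0 to 1 members; between the knockdowns that member was Mylip, without either library numbered 1 of Chd8 or Tsc2 siRNA. Leaving out a Tsc2 siRNA library, which enters the Chd8 comparison only through the shared fit, gave 63 to 107 genes and 2 members there. The cause was not tested.

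With the longest transcript in place of the mean length, control TPM was 0.367 for Nr1h3, 1.42 for Rxrb and 12.4 for Abcg1.

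Some log2FC of the 8 tested genes changed sign, none of them called; values that round to 0.00 were taken as having no direction, as for Nr1h2 after Tsc2 siRNA, which was 0.02 in libraries 2 and 3, -0.04 to 0.04 without 1 library and -0.08 to 0.05 with the block. After Chd8 siRNA they were -0.21 for Nr1h2 (leading transcript), 0.02 for Rxra (limma-voom) and 0.08 (libraries 2 and 3, with or without the block), and -0.03 for Rxrb (protein-coding transcripts). After Tsc2 siRNA they were 0.21 for Rxra (libraries 2 and 3) and, for Abcg1, -0.11 (limma-voom), -0.08 (replicate block in edgeR and in DESeq2), -0.03 (leading transcript), -0.26 and -0.27 (libraries 2 and 3). Between the knockdowns they were -0.03 for Nr1h2 and -0.15 for Rxra (leading transcript), -0.14 for Rxra (libraries 2 and 3) and 0.03 for Pparg (limma-voom).

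Leaving out 1 library without the block gave, after Chd8 siRNA, -0.16 to 0.18 for Rxra, -0.07 to 0.20 for Rxrb, -0.50 to 0.92 for Pparg, -0.98 to 0.64 for Abca1 and -0.92 to 0.12 for Abcg1. After Tsc2 siRNA it gave -0.24 to 0.11, -0.38 to 0.09, -0.32 to 0.96, -0.85 to 0.71 and -0.63 to 0.41 for the same genes and -0.03 to 0.37 for Mylip. Between the knockdowns it gave -0.17 to 0.84 for Nr1h3, -0.03 to 0.21 for Rxra, -0.06 to 0.42 for Rxrb, -0.83 to 0.62 for Pparg, -0.88 to 0.67 for Abca1 and -0.95 to 0.38 for Abcg1. With the replicate block it gave -0.22 to 0.19 for Rxra and -0.26 to 0.24 for Rxrb after Chd8 siRNA, -0.29 to 0.17 for Rxra, -0.30 to 0.09 for Rxrb and -0.26 to 0.03 for Abcg1 after Tsc2 siRNA, and -0.22 to 0.93 for Nr1h3, -0.17 to 0.29 for Rxra and -0.10 to 0.40 for Rxrb between the knockdowns. Nr1h3, at 19 to 86 counts per library, had an SE of 0.53 after Chd8 siRNA, beside 0.12 for Nr1h2 at 1075 to 2388 counts.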
